A study of Mus musculus with 5 samples.

Results

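Aggrecan (Acan), its relatives and the genes around the hyaluronan that anchors them were followed in mouse thoracic aorta. The measurements were made on Affymetrix whole-genome mouse arrays. Every probe set that the array's annotation assigned to 1 gene alone was taken where that gene was Acan, Vcan, Bcan, Ncan, Hapln1, Hapln3, Has1, Has2 or Sox9. This gave 25 probe sets for 9 genes, of 45037 probe sets and 18193 named genes on the array. A probe set is a group of short probes that together read one transcript, mostly near its 3′ end. The 9 genes were chosen by the log2 difference between these same arrays: Acan for its size, and the others as its relatives and regulator with their values already known. All values of the genotype comparison in these 9 genes are therefore a description, and no test is claimed for them.

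The arrays held total RNA of thoracic aortas from male C57BL/6 mice. The 3 P467L arrays came from transgenic mice that express P467L, a dominant negative mutant of human PPAR gamma. The transgene is driven by the smooth muscle myosin heavy chain promoter. Littermates without the transgene gave the 2 non-transgenic arrays. Each array was a separate pool of RNA from 6 to 8 aortas, so the spread between arrays is a spread between pools. The promoter directs the mutant receptor to smooth muscle, while the RNA came from the whole vessel with its endothelium, adventitia and attached tissue. In such bulk RNA, more cells of a type and more transcript per cell cannot be told apart. The labels used here name neither the age of the mice nor the transgenic line.

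Hyalectans are large extracellular proteoglycans whose N-terminal domain binds hyaluronan and whose middle region carries chondroitin sulfate chains. Link proteins clamp that bond, and hyaluronan itself is spun out of the cell by synthases in the plasma membrane. The resulting hydrated gel gives cartilage its resistance to compression. In the artery wall versican is the hyalectan best known from smooth muscle and adventitia, and aggrecan is also found there. Brevican and neurocan are known mainly from brain matrix. Sox9 is the transcription factor that drives aggrecan, link protein 1 and type II collagen in chondrocytes.

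In the mouse genome each hyalectan gene lies beside a link protein gene. In the GRCm38.p6 gene table the gap between Acan and Hapln3 on chromosome 7 was 1927 bases, and that between Vcan and Hapln1 on chromosome 13 was 43476 bases. Bcan and Hapln2 were 18382 bases apart on chromosome 3, and Ncan and Hapln4 were 2222 bases apart on chromosome 8. In all 4 pairs the table listed 0 genes in the gap. Has1 lies on chromosome 17, Has2 on chromosome 15 and Sox9 on chromosome 11.

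Promoter windows from RefSeq (GRCm38.p6, 250 bases before to 50 bases after a start site) were held for 7 of the 9 genes, all but Has2 and Sox9. The start site of the window lay at the outer start of the gene for Acan. Inside the outer start it lay 2155 bases for Hapln3, 107 bases for Hapln1, 1819 bases for Bcan and 19 to 515 bases for Ncan, Has1 and Vcan, so each window shows 1 start site of a gene that may have several. The windows of Acan, the gene with the largest difference, of Hapln3, its neighbour, and of Hapln1, the link protein gene with the largest difference, are shown 5′ to 3′ along the gene. The Acan window is chr7:79052976-79053275 on the plus strand, that of Hapln3 is chr7:79130969-79131268 on the minus strand and that of Hapln1 is chr13:89540386-89540685 on the plus strand. Capitals mark letters that match, on either strand, AGGTCA (the half-site of PPAR and other nuclear receptors), ACAAT or ACAAAG (cores bound by Sox proteins), GGGCGG (the GC box) or TATAAA (the TATA box).
Acan: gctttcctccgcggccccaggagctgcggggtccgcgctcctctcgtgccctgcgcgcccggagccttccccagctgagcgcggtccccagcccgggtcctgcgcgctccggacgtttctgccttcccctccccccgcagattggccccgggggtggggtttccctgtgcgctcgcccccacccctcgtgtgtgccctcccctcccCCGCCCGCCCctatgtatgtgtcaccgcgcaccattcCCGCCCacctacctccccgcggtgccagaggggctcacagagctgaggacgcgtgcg
Hapln3: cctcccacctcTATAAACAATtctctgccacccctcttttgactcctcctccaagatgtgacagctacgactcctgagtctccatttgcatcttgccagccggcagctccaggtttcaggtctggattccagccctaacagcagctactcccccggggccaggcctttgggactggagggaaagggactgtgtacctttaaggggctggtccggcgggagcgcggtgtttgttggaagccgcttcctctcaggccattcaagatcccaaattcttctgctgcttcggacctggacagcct
Hapln1: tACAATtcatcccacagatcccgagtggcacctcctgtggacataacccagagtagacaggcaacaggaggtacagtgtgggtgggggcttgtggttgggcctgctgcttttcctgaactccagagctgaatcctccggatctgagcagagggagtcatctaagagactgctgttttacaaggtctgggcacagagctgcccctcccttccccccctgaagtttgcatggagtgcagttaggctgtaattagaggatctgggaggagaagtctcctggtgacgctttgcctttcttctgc

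The Acan window was 74.0% G or C, above 95.2% of the 32851 promoter windows of the table, whose median was 52.7%. It held 3 matches to the GC box, 2 of them overlapping in a run that began 44 bases before the start and the third beginning 7 bases before it. At least 1 GC box was present in 4 of the 7 windows (Acan, Vcan, Bcan and Ncan), beside 35.7% of all windows. The nuclear receptor half-site was found in 1 of the 7, Has1, beginning 113 bases before the start, beside 16.3% of all windows. The direct repeat of AGGTCA with 1 base between its copies, the element of PPAR and its partner RXR, was in 0 of the 7 and in 0.0396% of all windows. ACAAT was in 2 of the 7, Hapln1 and Hapln3, beside 31.0% of all windows, and ACAAAG in 0 of the 7 beside 18.7%. TATAAA was in 2 of the 7, Ncan and Hapln3, beside 13.6%, and in Hapln3 it shared bases with ACAAT. These are matches of letters in a short window, and a window without a match says nothing of sites elsewhere.

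The arrays were not alike in all respects. Over all probe sets the correlations of P467L replicate 1 ran from 0.985 to 0.991, and those among the remaining arrays from 0.995 to 0.997. It held 842 probe sets that were lower than in every other array by 1 log2 unit or more, and non-transgenic replicate 2 held 56 that were as much higher. Of the 25 probe sets 0 were of either kind. P467L replicate 1 was nevertheless the single highest array in 14 of the 25 probe sets, or 56.0%, beside 36.6% of all probe sets, and the single lowest in 0 of the 25, beside 20.1%. Values are therefore also given without these arrays where the results turn on them. The smooth muscle markers Acta2 and Tagln lay at 14.8 and 14.7 on the log2 scale in P467L aortas, and at 14.8 and 14.7 in non-transgenic aortas. These values identify the tissue but lie near the top of the scale of the array, where a difference can hardly show.

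Limma, a linear model with a spread estimate shared across all probe sets, called 0 of the 25 probe sets at a Benjamini-Hochberg adjusted p of 0.05, as it called 0 of all 45037 (0%). At an unadjusted p of 0.05 there were 3 of the 25, from Acan, Hapln1 and Sox9, beside 7.44% of all probe sets. The difference, P467L minus non-transgenic, was above 0 in 16 of the 25, below 0 in 8 and 0 in 1, beside 48.8% of all probe sets above 0. The median difference was 0.05 over the 25 probe sets and 0.00 over all probe sets. The difference was 0.5 or more in either direction in 2 of the 25, from Acan and Hapln1, beside 2.48% of all probe sets. In 7 of the 25 every P467L array lay above both non-transgenic arrays, beside 11.2% of all probe sets, and in 0 of the 25 every P467L array lay below both, beside 7.61%. Because the genes were gathered with this contrast in view, nothing is read from these counts.

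**Figure D1:**
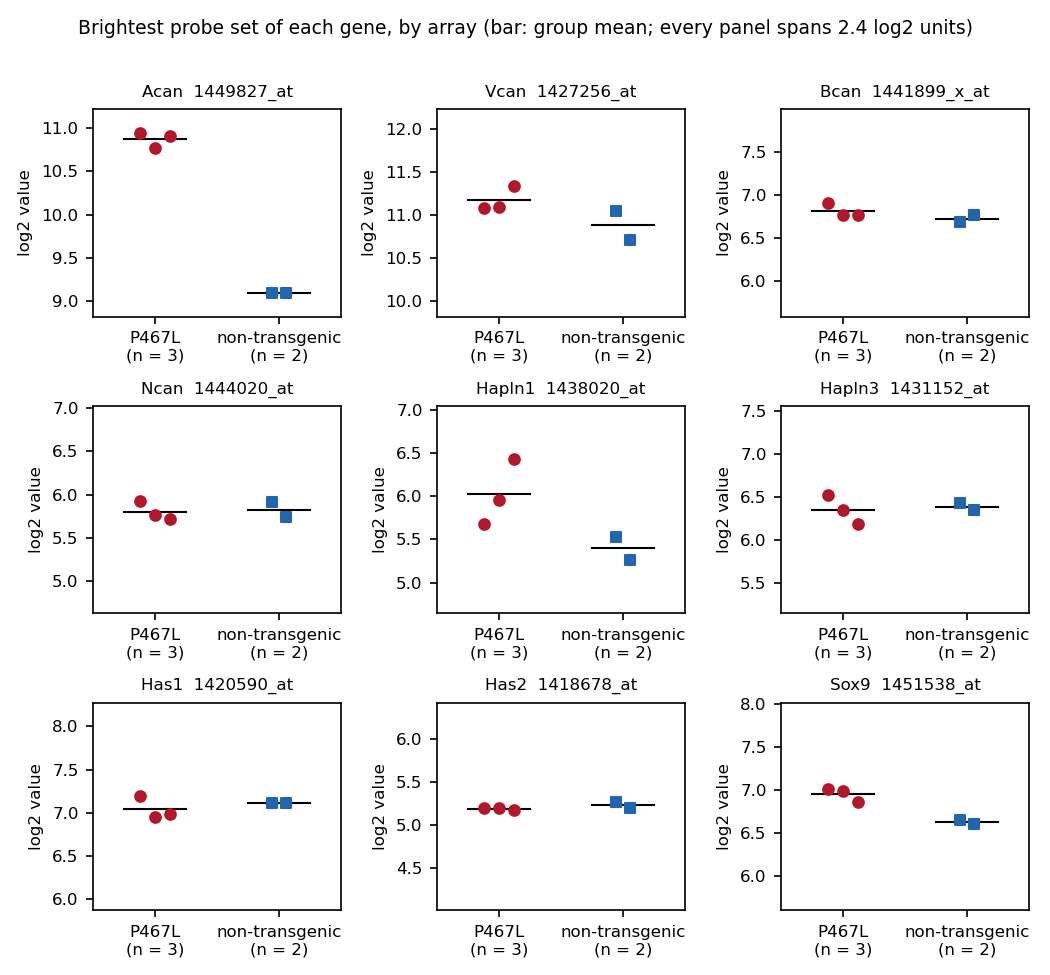
Log2 values of the brightest probe set of each of the 9 genes, one point per array, with P467L arrays as circles, non-transgenic arrays as squares and bars at the group means. All panels span the same number of log2 units. The groups stand 1.79 log2 units apart for Acan and within 0.10 for Bcan, Ncan, Hapln3, Has1 and Has2.

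Among the hyalectans, aggrecan mRNA stood far higher in P467L aortas than in controls. Its 1 probe set, 1449827_at, measured 10.95, 10.77 and 10.91 on the log2 scale in P467L replicates 1 to 3, against 9.09 and 9.09 in non-transgenic replicates 1 and 2. All 3 P467L arrays lay well above both non-transgenic arrays, and the lowest P467L array was P467L replicate 2. The difference was 1.79 log2 units (SE 0.07, 95% interval 1.60 to 1.97), a 3.45-fold higher level. It was the 23rd largest of 45037 differences in size and the 12th largest upward. Both non-transgenic arrays carried the same value to 2 decimals, so 2 such arrays cannot show the spread between pools, while the P467L arrays had an SD of 0.09 (n = 3). The difference was 1.75 with neither P467L replicate 1 nor non-transgenic replicate 2 in the fit.

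Versican, read by 8 probe sets, showed much smaller differences. Its brightest probe set, 1427256_at, measured 11.08, 11.09 and 11.34 in P467L replicates 1 to 3, against 11.05 and 10.71 in non-transgenic replicates 1 and 2. All P467L arrays were the higher ones, but P467L replicates 1 and 2 lay barely above non-transgenic replicate 1. The difference was 0.29 (SE 0.14, interval -0.10 to 0.68), and it was 0.46 without non-transgenic replicate 1 and 0.12 without replicate 2 of that group. The second probe set, 1421694_a_at, measured 9.92, 9.75 and 9.86 in P467L aortas, against 9.72 and 9.50 in non-transgenic aortas, a difference of 0.23 (SE 0.09), or 0.12 without non-transgenic replicate 2. The third, 1427257_at, measured 9.06, 8.99 and 9.34 in P467L aortas, against 9.29 and 8.93 in non-transgenic aortas. There the groups overlapped, with a difference of 0.02 (SE 0.17) that was -0.16 without non-transgenic replicate 2. The other 5 Vcan probe sets had means over the 5 arrays between 3.55 and 4.51, below the lower quartile of all probe sets, and differences from -0.10 to 0.14. The groups overlapped in each of these 5.

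Brevican was read by 1 probe set above the median level of all probe sets and 1 below it, and all 3 of neurocan lay below it. The brighter Bcan probe set, 1441899_x_at, measured 6.90, 6.76 and 6.76 in P467L aortas, against 6.68 and 6.76 in non-transgenic aortas, and the dimmer one averaged 4.84 in P467L and 4.77 in non-transgenic aortas. The differences were 0.09 (SE 0.06) and 0.07 (SE 0.09), and the groups overlapped in both. With each array left out in turn they ran from 0.04 to 0.13 and from -0.01 to 0.11. Ncan probe set 1434679_at was the lowest of the hyalectans relative to controls, at 5.76, 5.62 and 5.37 in P467L aortas, against 5.99 and 5.76 in non-transgenic aortas. P467L replicate 1 equalled non-transgenic replicate 2, so the groups met at 5.76, and the difference was -0.29 (SE 0.15, interval -0.69 to 0.11). It was -0.18 without non-transgenic replicate 1 and -0.41 without non-transgenic replicate 2. The other 2 Ncan probe sets differed by -0.02 (SE 0.09) and -0.01 (SE 0.03).

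**Figure D2:**
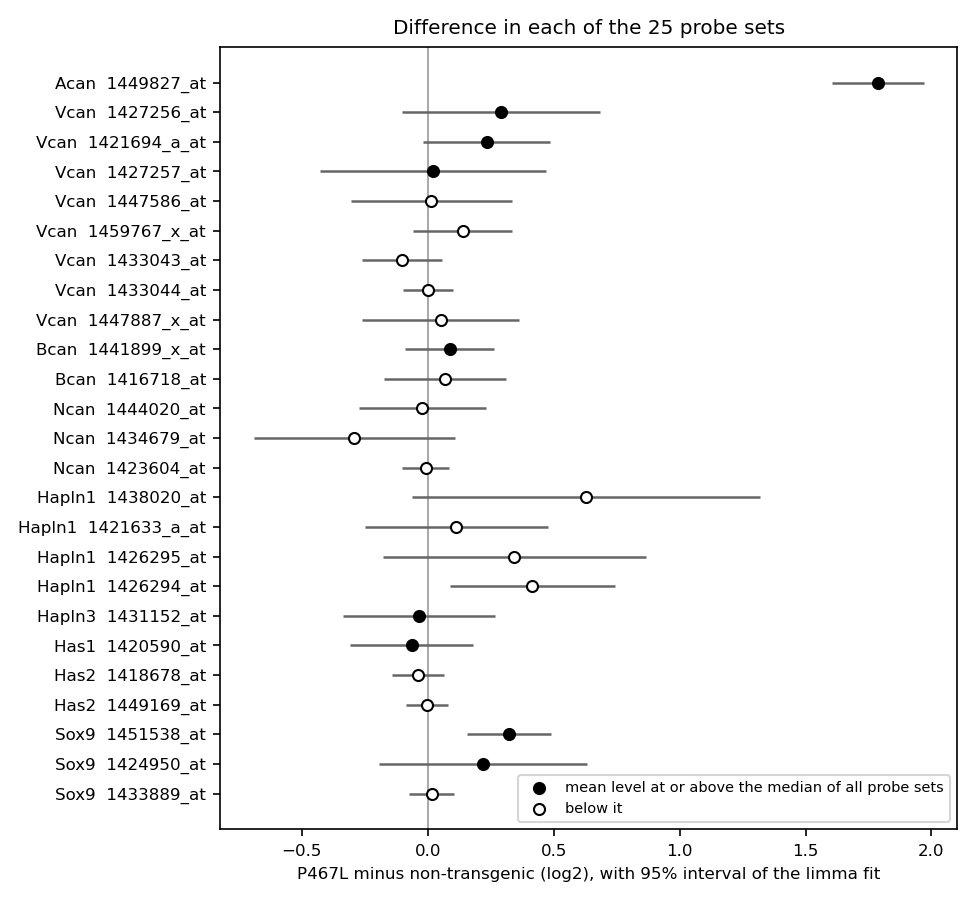
The 25 probe sets with their log2 difference, P467L minus non-transgenic, as a point and its 95% interval from limma as a line. Filled points are probe sets with a mean at or above the median of all probe sets. The intervals of Acan (1.60 to 1.97), Hapln1 1426294_at (0.09 to 0.74) and Sox9 1451538_at (0.16 to 0.49) lie above 0 before any adjustment.

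Hapln1 encodes the link protein that locks aggrecan onto hyaluronan in cartilage, and its 4 probe sets were dim. The brightest, 1438020_at, measured 5.68, 5.96 and 6.43 in P467L replicates 1 to 3, against 5.53 and 5.26 in non-transgenic replicates 1 and 2. All P467L arrays were the higher ones, with P467L replicate 3 far above P467L replicate 1. The difference was 0.63 (SE 0.25, interval -0.06 to 1.32), it was 0.42 without P467L replicate 3 and it was 0.80 without P467L replicate 1. Probe set 1426294_at measured 3.94, 3.76 and 4.12 in P467L aortas, against 3.48 and 3.57 in non-transgenic aortas, a difference of 0.42 (SE 0.12). The groups did not overlap there, but its mean of 3.77 lies among the dimmest probe sets of the array. Probe set 1426295_at measured 4.22, 4.22 and 4.56 in P467L aortas, against 4.22 and 3.76 in non-transgenic aortas. Its groups met at 4.22, with a difference of 0.34 (SE 0.19) that was 0.57 without non-transgenic replicate 1 and 0.11 without replicate 2 of that group. The remaining probe set, 1421633_a_at, differed by 0.11 (SE 0.13), and by 0.00 without P467L replicate 1.

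Hapln3, the neighbour of Acan, encodes a more widely expressed link protein. Its probe set 1431152_at measured 6.52, 6.35 and 6.19 in P467L aortas, against 6.43 and 6.35 in non-transgenic aortas. Both non-transgenic arrays lay within the P467L range, and the difference was -0.04 (SE 0.11, interval -0.34 to 0.27). It ran from -0.12 to 0.05 when each array was left out in turn.

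The hyaluronan synthases extend the sugar chain at the cell surface. Has1 measured 7.20, 6.95 and 6.99 in P467L aortas, against 7.11 and 7.11 in non-transgenic aortas. P467L replicate 1 was the highest array and the other P467L arrays the lowest, with a difference of -0.06 (SE 0.09, interval -0.31 to 0.18), or -0.14 without P467L replicate 1. Has2, the synthase needed for heart cushion formation in the mouse embryo, measured 5.20, 5.20 and 5.17 in P467L aortas, against 5.26 and 5.20 in non-transgenic aortas with its brighter probe set, 1418678_at. The difference was -0.04 (SE 0.04), and the second probe set, 1449169_at, lay between 4.32 and 4.33 in all 5 arrays. At these low and flat signals a change in Has2 could not be told from background, since no detection call was used here.

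Sox9 had 3 probe sets. The brightest, 1451538_at, measured 7.01, 6.99 and 6.86 in P467L replicates 1 to 3, against 6.65 and 6.61 in non-transgenic replicates 1 and 2. All P467L arrays lay above both non-transgenic arrays, and the difference was 0.32 (SE 0.06, interval 0.16 to 0.49), or 1.25-fold. It ran from 0.29 to 0.37 when each array was left out in turn. The second probe set, 1424950_at, measured 6.60, 6.20 and 6.20 in P467L aortas, against 6.06 and 6.17 in non-transgenic aortas. Here P467L replicate 1 stood above the rest, and the difference of 0.22 (SE 0.15) was 0.09 without it. The third probe set, 1433889_at, lay between 4.55 and 4.59 in all arrays.

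**Figure D3:**
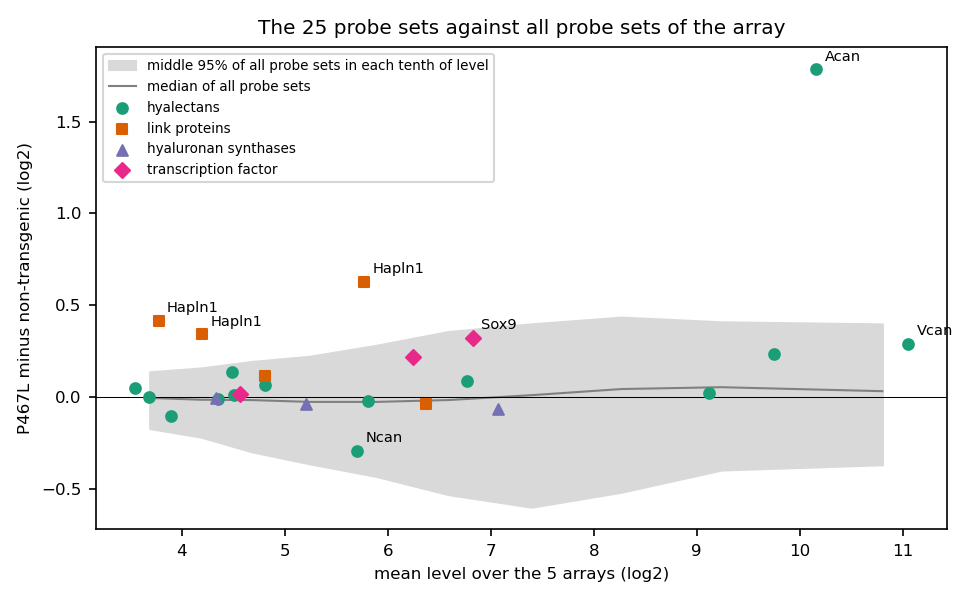
Difference (P467L minus non-transgenic, log2) against mean level over the 5 arrays (log2) for the 25 probe sets, by role. The shaded band is the middle 95% of all probe sets in each of 10 groups by level, with like numbers in each. Acan at 1.79 and the Hapln1 probe sets at 0.63, 0.42 and 0.34 lie above the band, and the synthases lie near 0.

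The spread of differences depends on brightness, which bears on how the members compare. Probe sets were therefore split into 10 bands of mean level with like numbers in each. In the band that holds Acan, with means from 9.86 to 14.97, the middle 95% of differences ran from -0.37 to 0.40. The brightest Vcan probe set lies in the same band, inside that range. In the band that holds Hapln1 1438020_at, with means from 5.56 to 6.23, the range was -0.43 to 0.28, and its difference of 0.63 lay outside. Sox9 1451538_at, at 0.32, was inside the range of -0.53 to 0.36 of its own band.

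Profiles over the 5 arrays were compared with that of Acan by the root mean square distance between mean-centred log2 values, with 1 probe set per gene among 18193 genes. The nearest were Sphkap, an anchoring protein of protein kinase A, at 0.10, and Pde1c, a calmodulin-dependent cyclic nucleotide phosphodiesterase, at 0.12. Diras2, a small GTPase, followed at 0.14, Igfbp2, a binding protein of insulin-like growth factors, at 0.18, and Bex1 at 0.20. Sphkap measured 10.08, 10.02 and 10.25 in P467L aortas, against 8.46 and 8.21 in non-transgenic aortas. Igfbp2 measured 10.24, 9.81 and 9.80 in P467L aortas, against 8.42 and 8.43 in non-transgenic aortas. Of the other 8 genes gathered here the nearest was Hapln1, at a distance of 0.63 and rank 202. Sox9 followed at 0.72 and rank 598 and Vcan at 0.75 and rank 868. A profile flat over the 5 arrays would lie at 0.88. The distance counts the size of a step as well as its shape. By it these genes lay much farther from Acan than the 5 nearest. The likeness is that of a step between the groups, which is how Acan was chosen, and it is given as a description.

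Other genes of the pathway were taken from a list arranged by role, each read from its brightest probe set. Of 74 listed genes 70 were measured, and limma called 0 of them at an adjusted p of 0.05, as it called 0% of all 18193 genes read in the same way. At an unadjusted p of 0.05 there were 19 of the 70, beside 9.45% of all genes. The difference was above 0 in 47 and below 0 in 22, beside 56.0% of all genes above 0, with a median of 0.06, beside 0.02 for all genes. The groups did not overlap in 19 genes with P467L higher, beside 16.1% of all genes, and in 6 with P467L lower, beside 6.55%. The list was drawn up with earlier results of these data known, so nothing is read from these counts. All adjusted p-values below are limma's, over all 45037 probe sets.

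**Figure D4:**
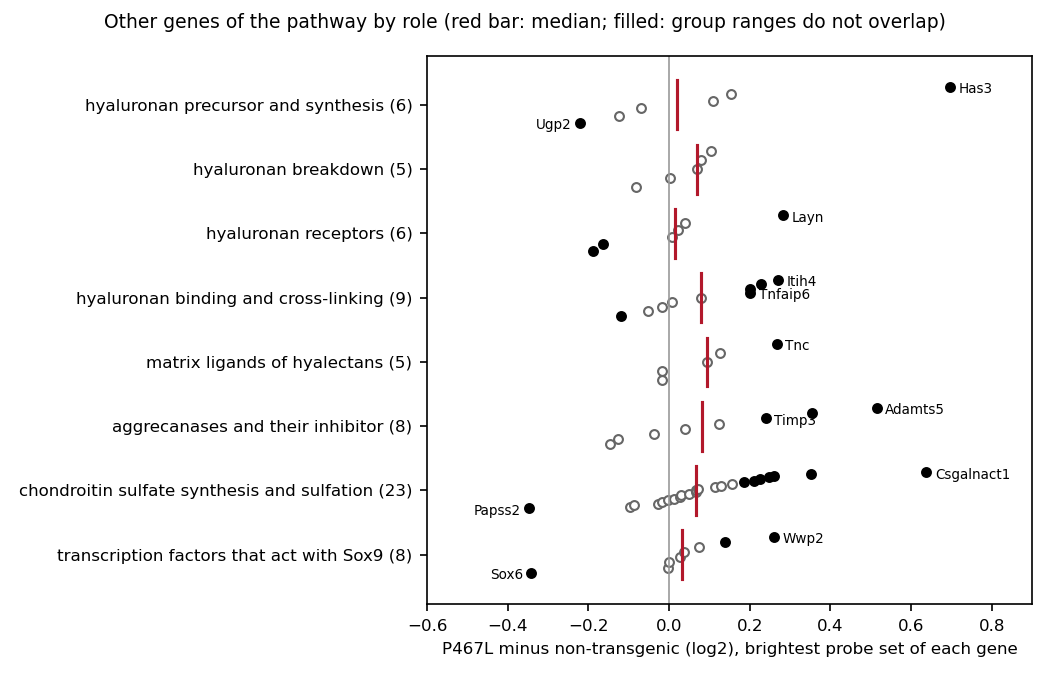
Differences (P467L minus non-transgenic, log2) in the brightest probe set of each of 70 other pathway genes, by role, with the number measured in parentheses, a red bar at the median and filled points where the group ranges do not overlap. Has3 at 0.70, Csgalnact1 at 0.64 and Adamts5 at 0.52 lie farthest to the right, and Papss2 at -0.35 and Sox6 at -0.34 farthest to the left.

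Among genes for hyaluronan and its precursors 0 of 6 passed. Has3, the third synthase, measured 6.65, 6.32 and 6.28 in P467L aortas, against 5.84 and 5.60 in non-transgenic aortas. All P467L arrays were higher, and the difference was 0.70 (SE 0.15, adjusted p = 0.456), or 0.58 without P467L replicate 1 and 0.46 without that array and non-transgenic replicate 2 together. The other synthases, Has1 and Has2, differed by -0.06 and -0.04, and the differences between the 3 synthases were not tested. Ugp2, which makes UDP-glucose, measured 10.53, 10.67 and 10.81 in P467L aortas, against 10.91 and 10.87 in non-transgenic aortas, with an adjusted p of 0.748. Its groups did not overlap, with P467L lower. In hyaluronan breakdown 0 of 5 passed. Hyal2, a membrane-anchored hyaluronidase, differed by 0.08 (SE 0.05), or 0.02 without non-transgenic replicate 1, and the hyaluronan-degrading proteins Cemip and Cemip2 by -0.08 (SE 0.05) and 0.10 (SE 0.12).

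None of the 6 hyaluronan receptors passed. Cd44, the main cell surface receptor, measured 10.11, 10.12 and 10.18 in P467L aortas, against 10.27 and 10.33 in non-transgenic aortas. The groups did not overlap and all 4 of its probe sets were lower, by 0.16 on the log2 scale in the brightest (SE 0.04, adjusted p = 0.532). Layn, or layilin, a hyaluronan-binding membrane lectin, differed by 0.28 (SE 0.08, adjusted p = 0.561). Among 9 binding and cross-linking genes 0 passed. Tnfaip6, which transfers heavy chains of the inter-alpha inhibitor onto hyaluronan, differed by 0.20 (SE 0.05, adjusted p = 0.494), and Itih4, of the heavy chain family, by 0.27 (SE 0.08, adjusted p = 0.554).

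Matrix ligands that hyalectans bind gave 0 of 5 past the threshold. Tenascin-C (Tnc) measured 10.32, 10.48 and 10.33 in P467L aortas, against 10.03 and 10.19 in non-transgenic aortas. The difference was 0.27 (SE 0.08, adjusted p = 0.576), while its other probe set did not share that sign. Fbln1 (fibulin-1) and Fbn2 (fibrillin-2) differed by -0.02 (SE 0.10) and 0.13 (SE 0.13). Of the enzymes that cut aggrecan and versican and the inhibitor Timp3, 0 of 8 passed. Adamts5, an aggrecanase, measured 10.06, 10.21 and 10.36 in P467L aortas, against 9.67 and 9.72 in non-transgenic aortas. All P467L arrays were higher, and the difference was 0.52 (SE 0.10, adjusted p = 0.416), with the same sign in 3 of its 4 probe sets. Timp3, which inhibits aggrecanases, measured 13.03, 13.00 and 13.06 in P467L aortas, against 12.79 and 12.79 in non-transgenic aortas. Its difference was 0.24 (SE 0.04, adjusted p = 0.320), and 4 of 4 probe sets shared the sign.

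In the synthesis and sulfation of chondroitin sulfate, the chains that aggrecan carries, 0 of 23 genes passed. Csgalnact1, which starts a chondroitin chain, averaged 9.66 ± 0.13 in P467L aortas (SD, 3 arrays) and 9.03 ± 0.04 in non-transgenic aortas (SD, 2 arrays). The groups did not overlap, and the difference was 0.64 (SE 0.09, adjusted p = 0.302), with the same sign in both probe sets. Papss2, which makes the sulfate donor, measured 8.90, 8.90 and 9.03 in P467L aortas, against 9.31 and 9.27 in non-transgenic aortas. Its difference was -0.35 (SE 0.06, limma adjusted p = 0.360), with the same sign in 3 of its 4 probe sets. Chsy1, which lengthens the chain, differed by -0.10 (SE 0.06), or -0.18 and -0.02 without non-transgenic replicates 1 and 2. Among 8 transcription factors and cofactors that act with Sox9, 0 passed. Sox6, a partner of Sox9 in chondrocytes, measured 7.19, 7.19 and 6.93 in P467L aortas, against 7.49 and 7.40 in non-transgenic aortas. Its difference was -0.34 (SE 0.10, adjusted p = 0.571) with 4 of 4 probe sets of that sign, the opposite sign to Sox9. Zfp219 and Wwp2, which are known to bind Sox9, differed by 0.14 (SE 0.04) and 0.26 (SE 0.12), and Wwp2 by 0.11 and 0.41 without non-transgenic replicates 1 and 2.

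Cartilage markers were set beside these values, since Acan, Hapln1 and Sox9 are genes of chondrocytes. Of 19 cartilage markers 9 lay below the median of the array in all 5 arrays, and 0 of 19 passed the test. The groups did not overlap in 4 with P467L higher, beside 16.1% of all genes, and in 1 with P467L lower, beside 6.55%. The largest difference was that of Prg4, the lubricating proteoglycan of joints, at 7.77, 7.18 and 7.98 in P467L aortas, against 6.66 and 7.12 in non-transgenic aortas, or 0.75 (SE 0.30). Chad differed by 0.33 (SE 0.13), with P467L higher in all arrays, and Snorc by -0.45 (SE 0.15), with P467L lower in all arrays. Col2a1, the type II collagen that defines cartilage, measured 6.84, 6.68 and 6.51 in P467L aortas, against 6.68 and 6.42 in non-transgenic aortas, with overlapping groups. Matn1 measured 3.41 to 3.56 in P467L aortas and 3.56 to 3.75 in non-transgenic aortas. The summed linear signal of the list was 2827 to 3303 in P467L aortas, against 2600 to 2796 in non-transgenic aortas. The largest part of it came from Comp, which vascular smooth muscle and tendon also make, at 10.83, 10.66 and 10.71 in P467L aortas, against 10.43 and 10.61 in non-transgenic aortas. The brightest marker after Comp was Cilp, at 8.09 in P467L and 7.76 in non-transgenic aortas. Of the 19 differences 13 were above 0, beside 56.0% of all genes, with a median of 0.05, beside 0.02 for all genes. The part of cartilage in the Acan difference was not tested.

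The other tissues that the samples could hold were read in the same way. For 8 fibroblast and adventitial markers, led by Dcn and Col1a1, the summed signal was 37062 to 40008 in P467L aortas, against 34799 to 36411 in non-transgenic aortas. Of the 8 differences 7 were above 0 and 1 below, beside 56.0% of all genes above 0, and the largest was that of Cd248 at 0.64 (SE 0.13). The groups were apart in 4 with P467L higher, beside 16.1% of all genes, and in 0 with P467L lower, beside 6.55%. For 8 smooth muscle markers, led by Acta2 and Tagln, it was 99852 to 101005 in P467L and 98664 to 99124 in non-transgenic aortas. Members of that list differed in both directions: Des, or desmin, by 0.81 (SE 0.13), Smtn by 0.16 (SE 0.04) and Myocd, a coactivator of smooth muscle genes, by -0.35 (SE 0.15), each with groups apart. For 8 endothelial markers the sum was 7134 to 7533 in P467L and 6820 to 7037 in non-transgenic aortas. Here too the members differed in both directions, with Cldn5 at 0.73 (SE 0.12), Nos3 at 0.47 (SE 0.05), Emcn at -1.05 (SE 0.12) and Pecam1 at -0.09 (SE 0.05), each with groups apart. The summed ranges of these lists did not overlap between the groups. Nor did those of 5 skeletal muscle markers, at 492.8 to 766.0 in P467L and 331.1 to 490.0 in non-transgenic aortas. Among single genes, the group ranges did not overlap in 22.7% of all genes. No such share was worked out for sums, which rest largely on their brightest members, so nothing is read from this. The skeletal muscle sum was higher through Ckm alone, which differed by 1.33 (SE 0.32), while the other 4 differences were below 0. The 6 macrophage markers overlapped, at 7153 to 9138 in P467L and 7231 to 7509 in non-transgenic aortas, as did 5 adipocyte markers, at 1447 to 2401 in P467L and 1254 to 2947 in non-transgenic aortas. For 13 neuronal and glial markers the sums were 898.7 to 1070 in P467L and 915.4 to 984.8 in non-transgenic aortas. No marker of any list passed the test, and the part of other tissues in the differences was not tested. Markers of stomach reached a sum of 32451 in non-transgenic replicate 2, while the P467L arrays lay between 4385 and 5464 and non-transgenic replicate 1 at 2812. Their part in the differences was not tested either.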

How the data were processed

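The deposited table held log2 values for 45101 probe sets on 5 arrays, which the authors made by RMA; the submitters' processing notes name Affymetrix Power Tools, with no version. RMA subtracts background, forces 1 distribution on all arrays and condenses probes to a value per probe set. A shift common to most transcripts is lost in this step. Values ran from 3.03 to 14.99. After 64 control probe sets were left out, 34945 of 45037 had 1 gene, 932 several and 9160 none in the platform annotation; symbols were updated through gene numbers from the GRCm38.p6 table.

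P467L (3 arrays) was compared with non-transgenic (2 arrays) in limma 3.58.1 (R 4.3.3; two-sided, lmFit then eBayes, without covariates), adjusted over 45037 probe sets, with 4.23 degrees of freedom per test. The script was tested on simulated data. The members and lists were chosen with earlier results of these data known. Named were every member probe set, and in each role the brightest gene and the 2 with the smallest p. So were the 2 brightest of the cartilage, fibroblast and smooth muscle lists and the 5 profiles nearest to Acan. Other marker genes were named after their values were seen. Alternatives were the scaling, filters, variance model, array weights, a replicate block, thresholds, 1 probe set per gene and leaving out arrays. The number of arrays limits the precision. Deviations from the group means correlated at 0.11 between the replicates numbered 1 and at 0.01 between those numbered 2. With 2 non-transgenic arrays both values rest on the same contrast, so they cannot decide whether equal numbers mark pairs. The numbers were not taken as pairs in the main fit.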

Additional observations from a re-analysis of the deposited data

How the results depend on the processing

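Results were recomputed under other settings, of which the fit without both arrays that stood apart and the gene by gene array weights were chosen after seeing the data. The Acan difference ran from 1.77 with a replicate block to 1.83 with median centring among the fits with equal weights and all 5 arrays, except 1.75 after a second quantile normalization. Leaving out 1 array gave 1.75 to 1.84, with 0 probe sets called in each such fit. It was 1.68 with array weights and 1.70 with the gene by gene estimate. Probe sets called numbered 15 with median centring, 17 at an adjusted p of 0.10, 10 with 1 probe set per gene, 2245 with array weights and 283 with the gene by gene estimate. The count among the 25 was 1 (Acan) under median centring, the threshold of 0.10, 1 probe set per gene and the gene by gene weights, and 2 (Acan and Sox9) under array weights. The related genes called were 14 of 70 under array weights and 1 (Csgalnact1) under the gene by gene estimate. Over all 45037 probe sets those fits called the 2245 and 283 given above. No share over genes read from 1 probe set was worked out for them, so nothing is read from these counts. Array weights gave P467L replicate 2 a weight of 34.1 and every other array 0.90 or less, and the gene by gene estimate gave it 4.61. Such fits rest largely on that array for the P467L side.

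With the replicate block 0 probe sets were called, as without it; that fit leaves 1 residual degree of freedom, so its count says nothing of stability. Of the 25 differences 13 kept their sign under every setting in which they were fitted, and the largest of the other 12 was 0.11. A move to or from exactly 0 was counted as a change. That largest one, Hapln1 1421633_a_at, ran from 0 to 0.2 and did not reverse. Of 20 named related genes 17 kept their sign. Fbln1 (fitted on all arrays at -0.02) was 0.023 with median centring, and from -0.095 to 0.05 when 1 array was left out. Cemip2 ran from -0.027 to 0.233 in the same way. Fbn2 was -0.045 without both arrays that stood apart. The causes were not tested. With 2 and 3 arrays a group, and dim signals for most probe sets of Bcan, Ncan, Hapln1 and Has2, small differences could not be detected.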
